A study of Danio rerio with 42 samples.

Results

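Globins and 4 further red blood cell genes were described in zebrafish larvae and adult livers after embryonic alcohol exposure (EAE) and a dietary challenge. The 9 genes were taken by symbol: the globin genes hbaa1, hbaa2, hbba1, hbba2 and hbbe2, and alas2, cahz, slc4a1a and gata1a. All 9 symbols were present among the 25935 genes of the larval table. They were also all present among the 25680 genes of the liver tables, where hbba1 stands for 2 gene IDs, so that the livers hold 10 rows. The genes were chosen with the low hbaa1 and hbba1 values of EAE larvae on normal diet already known. The choice rests on these values, so comparisons that include larvae on normal diet are a description for these genes: no p is given, and the counts past a threshold are not evidence of an effect.

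All fish were wild-type AB strain. Embryos stood in 1% EtOH (EAE) or in none (control) between 12 hpf and 5 dpf. From 6 dpf the larvae ate a normal diet (ND) or one high in fat and cholesterol (HFHC), and whole larvae were taken at 13 dpf. The 4 larval groups had 3 samples each, every sample a pool of 15 sibling larvae, so that the spread between samples is a spread between pools. Single adult livers came from fish that had been in 1%, 0.5% or no EtOH over the same embryonic window and ate ND or HFHC diet for 8 weeks from 65 dpf, with 5 livers in each of the 6 groups. Read counts were analysed, with totals of 18582927 to 39115243 (median 20644885) in larvae and 8131371 to 12963071 (median 11299844) in livers. CPM below are counts scaled by library size and TMM factor, and TPM are the deposited length-corrected values of the larvae.

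Hemoglobin is built from paired alpha and beta globin chains, each holding a heme. Zebrafish change their globins as they grow: embryonic and larval genes lie in a cluster on chromosome 3 and in a smaller one on chromosome 12, and the adult alpha (hbaa) and beta (hbba) genes lie at the end of the chromosome 3 cluster. alas2 makes the erythroid form of the first enzyme of heme synthesis, cahz a carbonic anhydrase of red cells, slc4a1a the band 3 anion exchanger of the red cell membrane, and gata1a the transcription factor that directs erythroid differentiation. In whole larvae or whole livers, fewer red blood cells and less RNA per red blood cell cannot be told apart.

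The positions that the liver tables give, on GRCz10, show how closely these genes lie. On chromosome 3, hbba2 spans 54836628 to 54837449, hbaa2 spans 54838979 to 54839797 and hbaa1 spans 54845443 to 54851382. The 2 rows of hbba1 span 54843971 to 54849708 (ENSDARG00000089087) and 54843855 to 54844670 (ENSDARG00000097238). They share 700 bp with each other, and the first shares 4266 bp with hbaa1. The span of si:ch211-5k11.8, which RefSeq also lists as hbaa1.2, shares 901 bp with hbaa1. On chromosome 12, hbbe2 spans 20227991 to 20228755 and lies wholly inside the span of hbae5, an alpha globin, from 20220577 to 20231667. A read from a shared or near-identical stretch may have been dropped or given to either gene, so the split between neighbouring globins is uncertain. slc4a1a (19916121 to 19944785) lies elsewhere on chromosome 3, alas2 on chromosome 8 (21321758 to 21338179), cahz on chromosome 2 (29493850 to 29501875) and gata1a on chromosome 11 (25174298 to 25181240). The larval table lists symbols alone, so its gene models may differ.

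In control larvae on ND, hbbe2 was by far the most abundant of the genes per length, at 1623 ± 238 TPM (SD, n = 3). cahz followed at 182 ± 12.6 TPM, then slc4a1a at 88.0 ± 10.3 and hbba1 at 85.4 ± 27.0 TPM, alas2 at 68.7 ± 4.10 and hbaa1 at 67.2 ± 13.5 TPM (SD, n = 3 each). The hbba1 samples overlapped those of slc4a1a, alas2 and hbaa1, and hbaa1 overlapped alas2, so the order among these genes is not clear. gata1a was at 4.21 ± 0.587 TPM, hbba2 at 1.14 ± 0.865 and hbaa2 at 0.417 ± 0.130 TPM (SD, n = 3 each). hbaa2 and hbba2 had 27 and 38 reads over all 12 larval samples and did not pass the filter on low counts, which left 7 of the 9 genes for the fits.

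The adult globins hbaa1 and hbba1 of EAE larvae on ND were far below those of their controls. The other adult globins had too few reads for such a statement. hbaa2 had 2, 3 and 4 reads in control ND and 3, 1 and 1 in EAE ND larvae, and hbba2 had 6, 13 and 6 against 0, 0 and 2. hbaa1 had 373, 466 and 933 reads in control ND larvae and 37, 61 and 1 reads in EAE ND larvae, which is 17.0, 25.4 and 23.9 CPM against 1.90, 2.76 and 0.0520 CPM. On HFHC diet it had 437, 198 and 283 reads in control and 115, 149 and 101 reads in EAE larvae, or 19.2, 10.6 and 12.5 CPM against 5.74, 6.93 and 5.06 CPM. EAE larvae lay below their controls without overlap on both diets, and the 3 EAE ND samples lay below all 9 others.

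hbba1, the beta chain partner, gave nearly the same picture. It was at 16.9, 32.2 and 30.7 CPM in control ND and at 1.13, 3.34 and 0.0520 CPM in EAE ND larvae. On HFHC diet it was at 22.7, 11.6 and 11.1 CPM in control and at 5.79, 5.91 and 4.51 CPM in EAE larvae. EAE ND replicate 3, whose library of 18820927 reads held 1 read of each gene, stood apart from the other EAE ND samples and was also the lowest for hbbe2 and hbae5. The ratio of hbba1 to hbaa1 reads stayed between 0.595 and 1.29 in all 12 samples.

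**Figure D1:**
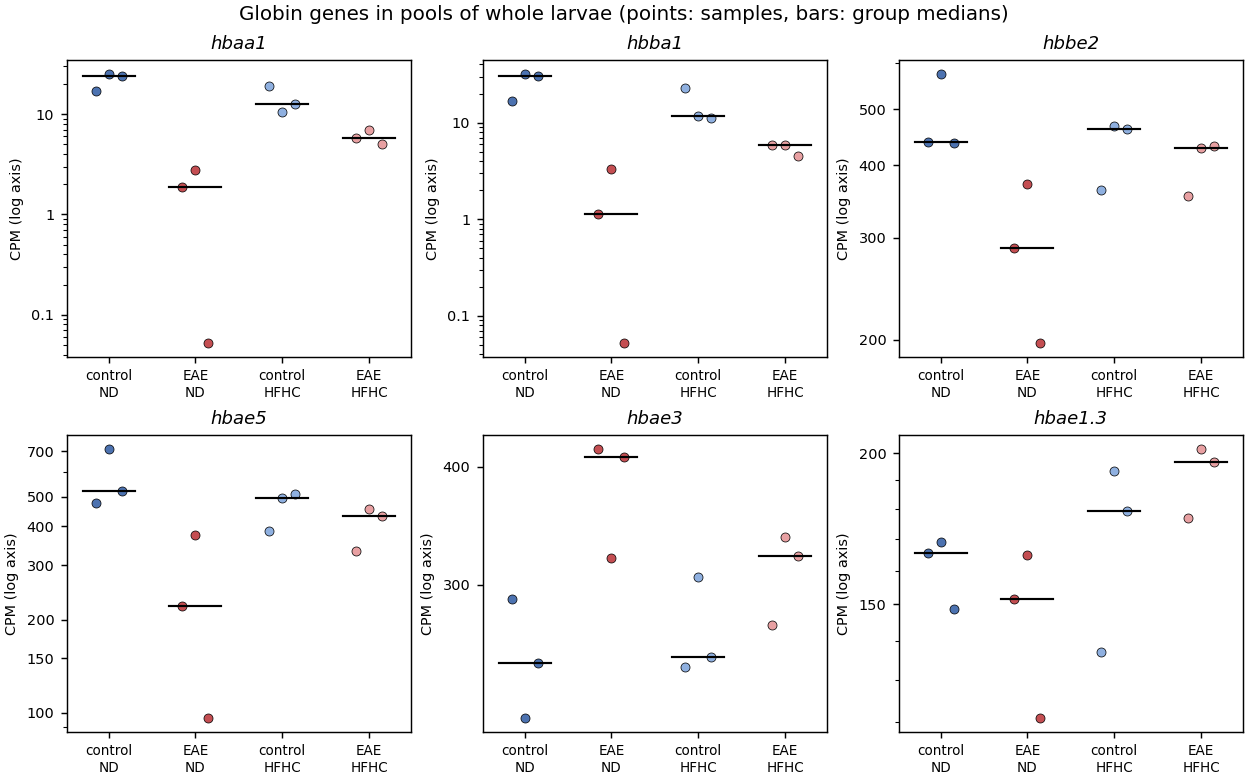
Globin levels in larvae, in CPM on logarithmic axes, with 1 panel per gene, 1 point per pool of larvae in replicate order and a bar at the group median. For hbaa1 and hbba1 the EAE ND samples lie lowest (0.0520 to 3.34 CPM) and the EAE HFHC samples next (4.51 to 6.93 CPM), hbbe2 and hbae5 are lowest in EAE ND replicate 3, and hbae3 is highest in the EAE ND group.

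The larval beta globin hbbe2 was at 439, 576 and 437 CPM in control ND and at 288, 371 and 197 CPM in EAE ND larvae, again without overlap. On HFHC diet the groups overlapped, with 363, 468 and 462 CPM in control and 354, 429 and 431 CPM in EAE larvae. The fitted difference on ND was -0.76 on the log2 scale (SE 0.170), against -3.77 (SE 0.380) for hbaa1 and -4.07 (SE 0.458) for hbba1. Without EAE ND replicate 3 these values were -0.55, -3.23 and -3.54. hbbe2 no longer passed the threshold of an adjusted p of 0.05 without that sample, nor without control ND replicate 2 or EAE ND replicate 1, nor with only these 2 groups in the fit.

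The other globin genes did not all go the same way on ND. hbae5, which overlaps hbbe2, was at 475, 714 and 519 CPM in control and 222, 374 and 95.9 CPM in EAE larvae, and fell by 1.3 on the log2 scale (SE 0.307). hbae3, an embryonic alpha globin, was at 290, 216 and 248 CPM in control and 418, 320 and 409 CPM in EAE larvae, and rose by 0.61 on the log2 scale (SE 0.119). Both passed the threshold in edgeR. hbae5 shares its span with hbbe2, and these genes were listed with earlier results of these data known, so the calls are a description. Neither call was stable: leaving out 1 of the 6 samples, hbae5 lost it in 5 fits and hbae3 in 4, with the same direction throughout. The remaining tested globins of the chromosome 3 cluster, hbae1.3, hbbe1.1 and hbbe1.2, had log2 fold changes of -0.14, -0.32 and 0.32 and did not pass the test. On HFHC diet none of these 5 passed the edgeR test, with log2 fold changes from -0.18 (hbae5) to 0.49 (hbbe1.1) and adjusted p from 0.628 to 0.922. hbbe3 had 18 reads and hbae1 1 read over all 12 samples.

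Read as shares of all globin TPM, the adult genes hbaa1, hbaa2, hbba1 and hbba2 made up 2.65% to 4.27% in the control ND samples and 0.0303% to 0.555% in the EAE ND samples. They made up 1.65% to 3.87% in control HFHC and 0.716% to 1.04% in EAE HFHC samples. The embryonic genes of chromosome 3 made up 32.3% to 42.2% of globin TPM in control ND and 46.5% to 70.1% in EAE ND samples, and the chromosome 12 genes 55.1% to 63.9% and 29.9% to 52.9%. The sum over the globin genes found was 4034 to 4698 TPM in control ND and 2868 to 3540 TPM in EAE ND larvae. On HFHC diet it overlapped between control (3529 to 4226) and EAE larvae (3628 to 4380). The adult and chromosome 12 shares were thus lower, and the embryonic share higher, in EAE samples on either diet, without overlap. The total was lower without overlap on ND only. These shares follow from the same counts and were not tested.

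alas2 was at 102, 111 and 95.4 CPM in control ND and 78.6, 95.2 and 74.4 CPM in EAE ND larvae, with no overlap but a narrow gap. cahz was at 183, 188 and 159 CPM against 132, 158 and 120 CPM, and these groups, too, were only just apart. slc4a1a (179, 149 and 145 CPM against 141, 151 and 140 CPM) and gata1a (5.10, 3.93 and 4.35 CPM against 4.10, 3.70 and 3.49 CPM) overlapped. The log2 fold changes on ND were -0.31 for alas2, -0.37 for cahz, -0.13 for slc4a1a and -0.25 for gata1a. Groups without overlap, the EAE samples lower, were found for 5 of the 7 genes fitted and for 9.17% of all genes. All 7 genes fitted on ND had negative values, with a median of -0.37 against -0.0026 over all genes. Of them 3 passed the threshold, all lower (hbaa1, hbba1 and hbbe2), where 0.458% of all genes were called lower. In DESeq2 cahz passed too. The genes were chosen on this comparison, so the count is no independent evidence.

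On HFHC diet these 4 genes lay higher in EAE than in control larvae. alas2 was at 108, 136 and 130 CPM in control and 144, 170 and 144 CPM in EAE larvae. cahz was at 166, 196 and 200 CPM against 203, 212 and 208 CPM. slc4a1a was at 150, 197 and 209 CPM against 212, 236 and 229 CPM, and gata1a at 4.60, 3.84 and 4.34 CPM against 5.04, 4.88 and 5.21 CPM. None of the 4 pairs of groups overlapped, although the nearest samples of cahz and slc4a1a differed by less than 3 CPM. Of all genes, 7.5% were higher in EAE larvae without overlap on this diet.

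**Figure D2:**
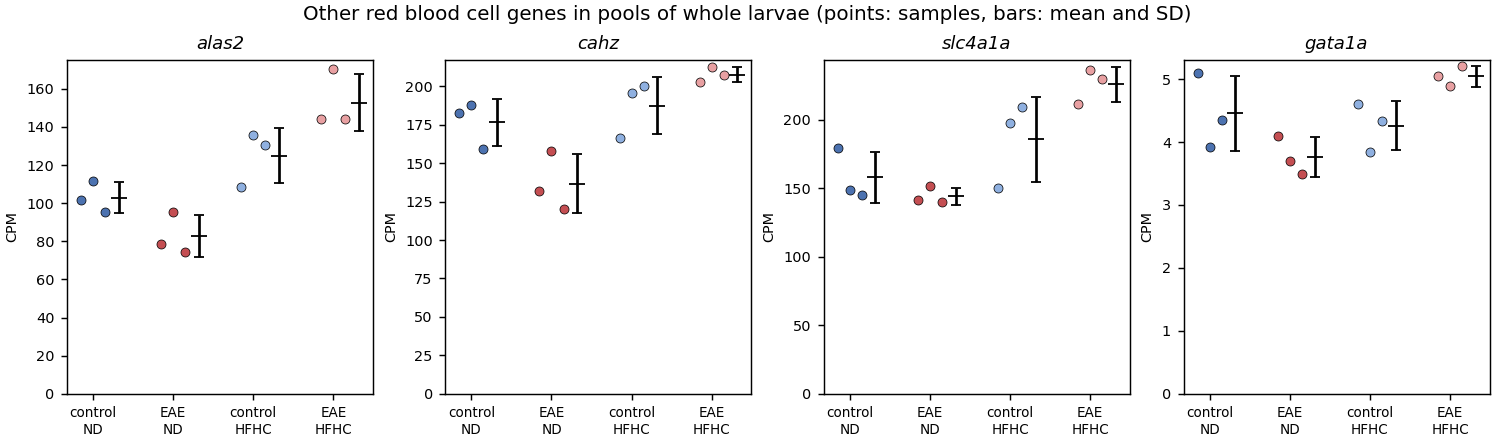
Levels of alas2, cahz, slc4a1a and gata1a in larvae, in CPM on axes from 0, with 1 point per pool in replicate order and the group mean with its SD to the right. Each gene is highest in the EAE HFHC group, with means of 153, 208, 226 and 5.05 CPM, and lowest in the EAE ND group, with means of 82.7, 137, 144 and 3.76 CPM.

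The effect of EtOH on HFHC diet was tested, since the choice of genes rested on the values of larvae on ND. Earlier results of these data were known, however, and the main fit estimated the spread with the ND larvae included. The p-values below are thus not those of an independent test. The log2 fold changes were -1.26 for hbaa1 (SE 0.319, adjusted p = 0.135, edgeR) and -1.49 for hbba1 (SE 0.390, adjusted p = 0.158, edgeR), both negative as on ND. They were -0.09 for hbbe2 (SE 0.169), 0.29 for alas2 (SE 0.10), 0.15 for cahz (SE 0.0926), 0.28 for slc4a1a (SE 0.102) and 0.24 for gata1a (SE 0.129), with adjusted p from 0.362 to 0.935. None of the 7 genes passed the threshold in edgeR or DESeq2, where edgeR called 0.234% of all genes. An unadjusted p under 0.05 in edgeR was found for 4 of the 7 and for 1633 of all 19657 genes. hbaa1 and hbba1 passed, both lower, with only these 2 groups in the fit (adjusted p = 0.0285 and 0.0322). Over the other alternatives the adjusted p of hbaa1 ran from 0.0539 without a filter to 0.998 in DESeq2. Groups without overlap were found for 2 of the 7 genes in the lower direction and 4 in the higher, against 6.72% and 7.5% of all genes.

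The effect of diet, the same samples compared the other way, was again a description for these genes. In control larvae the log2 fold changes from ND to HFHC were -0.64 for hbaa1, -0.81 for hbba1, -0.17 for hbbe2, 0.28 for alas2, 0.09 for cahz, 0.23 for slc4a1a and -0.06 for gata1a. None of the 7 passed the threshold in edgeR, where 17.1% of all genes were called, and DESeq2 called 1. Of the 7, 4 had an unadjusted p under 0.05 in edgeR, as did 6361 of all 19657 genes. In EAE larvae all 7 values were positive, at 1.87 for hbaa1 (SE 0.443), 1.77 for hbba1 (SE 0.552), 0.50 for hbbe2 (SE 0.170), 0.88 for alas2 (SE 0.102), 0.60 for cahz (SE 0.0934), 0.65 for slc4a1a (SE 0.103) and 0.42 for gata1a (SE 0.132). Of these, 6 passed the threshold, hbbe2 being the exception, where 8.19% of all genes were called higher. This count, too, uses the EAE ND values on which the genes were chosen, and nothing is read from it. The count was 3 in DESeq2, in which hbaa1, hbba1 and gata1a did not pass. gata1a passed in none of the fits without 1 of the 6 samples, and hbba1 passed only without EAE ND replicate 2. Without EAE ND replicate 3 the values of hbaa1 and hbba1 were 1.33 and 1.24.

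The interaction of EtOH and diet, the difference between both EtOH effects, was positive for all 7 genes and again holds the values they were chosen on. It was 2.51 for hbaa1 (SE 0.523), 2.58 for hbba1 (SE 0.641), 0.67 for hbbe2 (SE 0.240), 0.60 for alas2 (SE 0.143), 0.52 for cahz (SE 0.131), 0.41 for slc4a1a (SE 0.145) and 0.49 for gata1a (SE 0.184). None of the 7 passed the threshold in edgeR, where 0.254% of all genes were called. DESeq2 called alas2 and cahz, and hbaa1, hbba1, alas2 and cahz passed without a filter on low counts. Leaving out 1 sample at a time gave 0 to 4 called genes. The 4 came without EAE ND replicate 2, the EAE ND sample with the highest hbaa1. There were 2 without control HFHC replicate 2, and 1 each without control ND replicate 1 and control HFHC replicate 1.

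**Figure D3:**
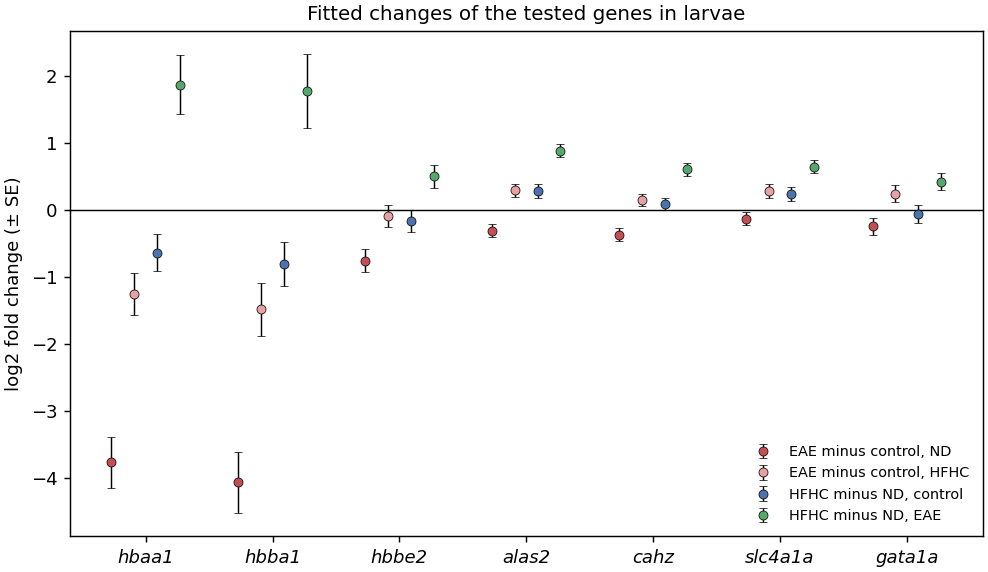
Fitted log2 fold changes of the 7 genes that passed the filter, with their SE, for EtOH on each diet and for diet in control and EAE larvae. hbaa1 and hbba1 lie at -3.77 and -4.07 for EtOH on ND and at -1.26 and -1.49 on HFHC diet, while the other 5 genes lie between -0.76 and 0.88 in all 4 comparisons.

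Of 84 tested genes of the wider red cell program, 2 passed the edgeR test for EtOH on ND and none on HFHC diet. Of all genes, 1.31% and 0.234% did. The lists of these genes were drawn up with earlier results of these data known. Their calls in comparisons with ND larvae are thus a description and no independent evidence. Of 18 tested heme synthesis genes, 5 tested genes of erythroid iron uptake, 18 erythroid transcription factors and receptors, 13 red cell enzymes and 8 genes of erythropoietin and oxygen sensing, none passed the edgeR test for EtOH on ND, where 1.31% of all genes did. The median log2 fold changes of these lists lay between -0.11 (heme synthesis) and 0.08 (iron uptake). Of 16 genes of the red cell membrane and cytoskeleton, epb41a, a protein 4.1 gene, was the only one called and rose by 0.47 on the log2 scale (SE 0.104, adjusted p = 0.0421). Of 6 genes of heme and hemoglobin clearance, hmox1a was the only one called. It encodes heme oxygenase, which breaks down heme, was at 13.6 ± 6.38 CPM in EAE ND and 6.43 ± 1.73 CPM in control ND larvae (SD, n = 3 each), and rose by 1.07 on the log2 scale (SE 0.239, adjusted p = 0.0424). Leaving out 1 of the 6 samples, epb41a lost its call in 5 fits (adjusted p up to 0.189) and hmox1a in 3 (up to 0.193). Over all 7 lists, 19 of the 84 tested genes had an unadjusted p under 0.05 on ND, as did 3073 of all 19657 genes. DESeq2 called 4 of the 84, and 557 of 13989 genes in all. On HFHC diet edgeR called none of the 84, and 13 had an unadjusted p under 0.05, as did 1633 of all 19657 genes. DESeq2 called 2 there, and 131 of 19630 genes in all. Of the 18 heme synthesis genes, 15 had positive log2 fold changes on HFHC diet, with a median of 0.14 against 0.0050 over all genes. The medians of the rest of the 7 lists ran from -0.12 (heme and hemoglobin clearance) to 0.04 (erythroid transcription factors and receptors).

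Diet had more calls in the same lists. In EAE larvae HFHC diet raised 5 of 18 heme synthesis genes and lowered none, with hmbsb (0.50 on the log2 scale), uros (0.58), urod (0.37) and ppox (0.37) leading by p, all enzymes of the pathway to heme. In control larvae none of these 18 rose, and hmbsa (-0.23) and alad (-0.21) fell. Of 18 erythroid transcription factors and receptors, 8 rose in EAE and 6 in control larvae and none fell, where 8.19% and 9.58% of all genes were called higher. klf3 rose in both, by 0.51 in EAE and 0.96 in control larvae, and klf1, a globin gene activator, was among the leading 4 in EAE larvae (0.56). The membrane gene epb41b rose by 0.71 and the transferrin receptors tfr1a and tfr1b by 0.35 and 0.28 in EAE larvae. Of 13 red cell enzymes and antioxidants, 4 rose and 3 fell in EAE larvae and 2 rose and 1 fell in control larvae, where 4.13% and 7.55% of all genes were called lower. They were led in EAE larvae by nt5c2l1 (0.97) and txn (1.16) among those that rose and by pklr (-0.59) among those that fell. hmox1a fell by 1.11 on the log2 scale in EAE larvae, and hpx, the heme-binding hemopexin, was lower on HFHC diet in EAE (-3.95) and control larvae (-3.09). All these values passed the edgeR test. Of the 31 calls in EAE larvae, hbae1.3 of the other globins included, 20 held in every fit without 1 sample, and of the 19 in control larvae 12 did. Among those named, ppox, tfr1a and tfr1b in EAE larvae and hmbsa and alad in control larvae lost their call in 1 or more of these fits.

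Summed markers of other blood and vessel cells differed between groups as well, in more than one direction. The 7 macrophage markers summed to 39.5 to 41.8 CPM in control ND, 36.2 to 37.9 in EAE ND, 60.1 to 63.0 in control HFHC and 66.4 to 68.5 CPM in EAE HFHC larvae, all 7 with reads. The 6 neutrophil markers summed to 198 to 225, 167 to 192, 247 to 374 and 283 to 305 CPM in the same order. The 7 thrombocyte markers summed to 1039 to 1094, 946 to 1045, 1188 to 1221 and 1004 to 1071 CPM, and the 9 lymphocyte markers with reads to 46.7 to 55.6, 39.9 to 53.7, 76.8 to 86.1 and 64.2 to 71.7 CPM. On HFHC diet the thrombocyte and lymphocyte sums were thus lower in EAE than in control larvae without overlap, where the 4 red cell genes were higher. The macrophage sum was higher in EAE larvae on that diet without overlap, as these 4 genes were, and the neutrophil sum overlapped. The 7 endothelial markers overlapped between control (157 to 168 CPM) and EAE larvae (147 to 161 CPM) on ND and between both groups on HFHC diet (180 to 187 and 178 to 200.5 CPM). The macrophage and neutrophil sums were thus lower in EAE than in control larvae on ND, as the red cell genes were. The thrombocyte sum was larger than the macrophage, neutrophil and lymphocyte sums, and which cells it reflects was not tested. The part of all these sums in the result was not tested either.

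Outside the red blood cell genes chosen, genes passing the filter were ranked by Pearson's r of log2 CPM with hbaa1 over the 12 larval samples. Genes with clone or placeholder names were left out. The highest were hbae5 (0.94), omd (0.93), kank1b (0.92), lypc (0.90) and fndc1 (0.89). Among the red blood cell genes themselves r with hbaa1 was 0.99 for hbba1, 0.89 for hbbe2, 0.66 for cahz, 0.47 for alas2 and gata1a and 0.23 for slc4a1a, and it was -0.83 for hbae3. These values are given as a description. The 12 samples are 4 groups of 3, and hbba1, hbbe2 and hbae5 lie next to or over other globin genes.

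Adult livers held mostly adult globin reads. All 30 livers held reads of hbaa1 (52418 in all), of the first hbba1 row (37602) and of hbaa2 (3380) and hbba2 (8179). Few or no reads were counted for the embryonic and larval globins. hbbe2 had 25 reads in 11 livers, at most 8 in one liver, hbae5 had 46 reads in 10 livers and hbae3 8 reads in 4 livers. hbae1.3, hbbe1.1 and hbbe1.2 had 1 read each, hbbe3 and hbbe1.3 had 3 reads each, and hbae1 had none. The span of hbae1 shares 11727 bp with hbbe1.1 and 680 bp with hbae1.3. hbbe1.2 and hbbe1.3 lie wholly inside the spans of both hbae1 and hbbe1.1. Reads from such stretches may have been dropped, so the counts of these 5 genes do not show that their RNA was absent. hbz, an alpha-type globin, was at 0.234 to 3.24 CPM. hbbe2 was too low to test in any liver comparison. The 10 hepatocyte markers, all with reads, summed to 45375 to 289156 CPM in these livers.

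hbaa1 varied 7.0-fold between livers, from 49.8 to 348 CPM, and 5 of the 6 groups spread over more than 3-fold. It was at 302, 69.7, 72.1, 145 and 135 CPM in control livers on ND, at 348, 138, 204, 146 and 72.9 CPM after 0.5% EtOH and at 232, 83.1, 49.8, 83.9 and 209 CPM after 1% EtOH. On HFHC diet it was at 194, 180, 224, 258 and 143 CPM in control livers, at 191, 166, 284, 76.6 and 135 CPM after 0.5% and at 88.8, 74.0, 153, 108 and 301 CPM after 1% EtOH. The groups overlapped throughout, and the control HFHC livers were the most alike.

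slc4a1a was at 7.45, 6.87, 3.77, 7.14 and 10.5 CPM in control ND, at 13.8, 11, 9.99, 7.24 and 4.99 CPM in 0.5% EtOH ND and at 16.5, 3.92, 2.34, 4.70 and 9.99 CPM in 1% EtOH ND livers. On HFHC diet it was at 15.5, 8.73, 15.5, 18.9 and 11.7 CPM in control livers, at 8.07, 10.8, 12.6, 5.02 and 7.30 CPM after 0.5% and at 3.69, 3.62, 8.98, 4.12 and 19.2 CPM after 1% EtOH. After 1% EtOH on HFHC diet 1 liver was above all control livers of that diet, and 3 were below all of them. alas2 ranged from 4.92 to 32.7 CPM over the 30 livers, cahz from 6.25 to 34.2 CPM, hbba2 from 4.24 to 58.0 CPM and hbaa2 from 0.421 to 27.2 CPM. gata1a was low, at 0.295 to 3.68 CPM with 446 reads in all 30 livers.

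**Figure D4:**
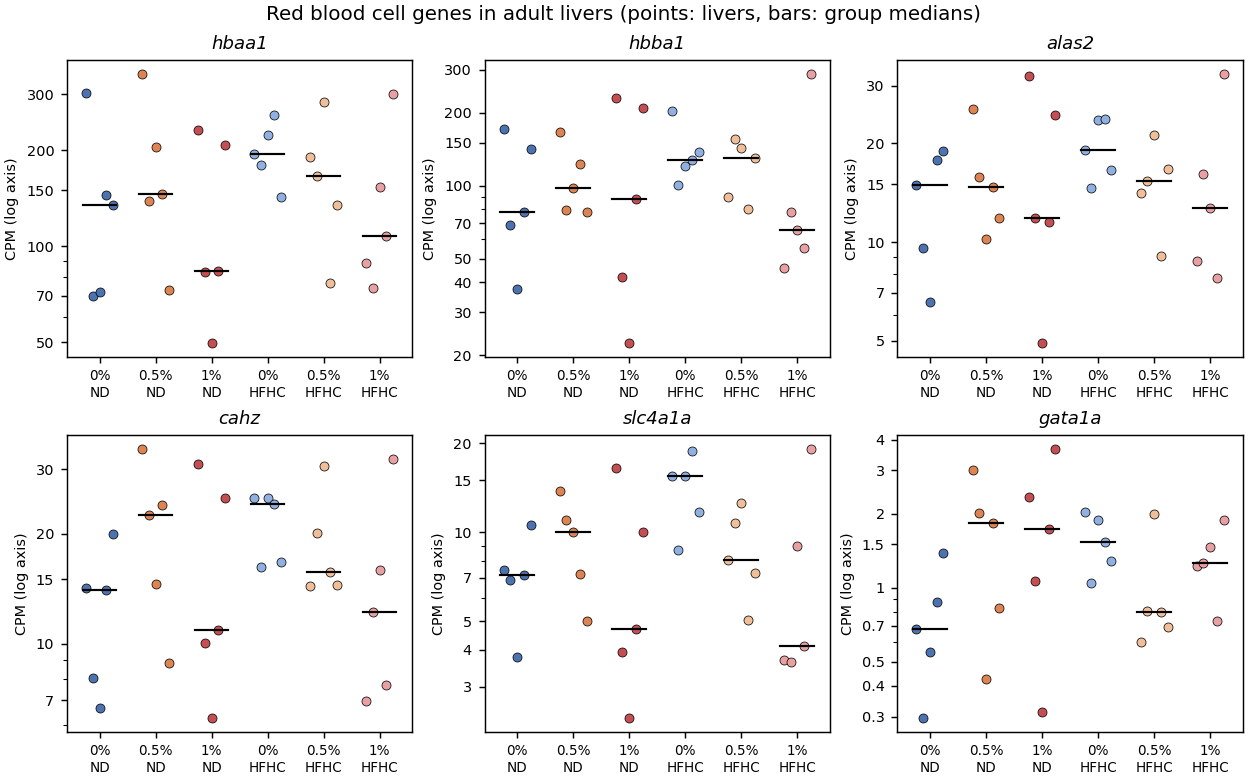
Levels of hbaa1, hbba1 (ENSDARG00000089087), alas2, cahz, slc4a1a and gata1a in adult livers by EtOH exposure and diet, in CPM on logarithmic axes, with 1 point per liver in replicate order and a bar at the group median. Within most groups the livers spread over several-fold (hbaa1 from 49.8 to 348 CPM over all groups), and the groups overlap.

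None of the 9 tested rows passed the threshold for EtOH in livers, in edgeR or in DESeq2, under any alternative. After 1% EtOH on ND, where 0.0154% of all genes were called, the log2 fold change was -0.16 for hbaa1 (SE 0.523), 0.06 for slc4a1a (SE 0.492) and 1.27 for gata1a (SE 0.604), with adjusted p from 0.928 to 0.999 over the 9 rows and none with an unadjusted p under 0.05. After 1% EtOH on HFHC diet (0.00813% called) all 9 values were negative, from -0.82 for slc4a1a (SE 0.450) to -0.23 for gata1a (SE 0.295), with adjusted p from 0.608 to 0.851 and none under 0.05 unadjusted. Without replicate 5 of the 1% EtOH HFHC livers slc4a1a was at -1.47 (adjusted p = 0.157, edgeR).

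After 0.5% EtOH on ND, where none of 12227 genes was called by edgeR (1676 had an unadjusted p under 0.05, and DESeq2 called 1036), the 8 tested rows had positive values from 0.10 to 0.70. Their adjusted p ran from 0.442 to 0.934, none was under 0.05 unadjusted, and gata1a was below the filter. After 0.5% EtOH on HFHC diet, where none of 12318 genes was called (1403 unadjusted, 138 in DESeq2), all 9 values were negative. The smallest p was that of slc4a1a, with a log2 fold change of -0.67 (SE 0.267, adjusted p = 0.382, edgeR), the 1 row with an unadjusted p under 0.05. The rows varied together between livers, so a shared sign is not 9 separate results.

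Diet did not change these genes beyond the threshold either. In control livers, where 11.1% of all genes were called, all 9 rows were higher on HFHC diet, from 0.40 for hbaa2 to 1.05 for gata1a (SE 0.524), with adjusted p from 0.180 to 0.800 and 1 row, slc4a1a at 0.98 (SE 0.462), with an unadjusted p under 0.05. After 0.5% EtOH (0.0703% called) the 9 values ran from -0.71 to 0.14 with adjusted p from 0.570 to 0.984, and after 1% EtOH (0.879% called) from -0.47 to 0.14 with adjusted p from 0.747 to 0.988. The interactions of EtOH and diet were negative for all 9 rows. They ran from -1.51 to -0.30 at 1% EtOH, where none of 14225 genes was called (765 unadjusted, 1 in DESeq2), and from -1.76 to -0.33 at 0.5% EtOH, where 7.91% were called. gata1a had the most negative value in both and was the only row with an unadjusted p under 0.05 (adjusted p = 0.900 and 0.146, edgeR). The comparisons share control livers and are not independent.

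Exocrine pancreas markers differed with diet in some of these groups. The 7 exocrine pancreas markers summed to 2091 to 23046 CPM in control ND livers and to 134 to 539 CPM in control HFHC livers, while the hepatocyte sum had medians of 178825 and 219685 CPM. The hepatocyte sum ranged from 45375 to 289156 CPM in control ND and from 190605 to 263906 CPM in control HFHC livers. After 1% EtOH the pancreas sum was 1578 to 18196 CPM on ND and 184 to 772 CPM on HFHC diet. After 0.5% EtOH the diets overlapped, with 270 to 3570 CPM on ND and 204 to 1524 CPM on HFHC diet. The part of such tissue in the diet values of the red cell genes was not tested. Common biological variation was 29.6% to 50.5% in the liver fits against 7.35% in larvae.

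Of the red cell lists, few genes were called in livers. In control livers HFHC diet lowered 3 of 17 heme synthesis genes, alas1 (the form of the enzyme made in all tissues, -1.43, adjusted p = 0.0188), abcb10 (-1.40, adjusted p = 0.0192) and slc25a38a (-5.17, adjusted p = 0.00291), and raised none, where 8.58% of all genes were called lower. The membrane gene mpp1 fell (-1.46) and epas1a, a hypoxia-inducible factor, rose (0.60). These 5 calls came from 74 tested genes of the lists, where 11.1% of all genes were called. Of the 5, that of slc25a38a alone held in every fit without 1 liver, although its levels spread from 0.989 to 62.7 CPM in control ND livers. Without control ND replicate 3 the other 4 were all lost, and the adjusted p without 1 liver reached 0.117 for alas1, 0.101 for abcb10, 0.384 for mpp1 and 0.160 for epas1a. The interaction at 0.5% EtOH called slc25a38a (4.58) and hmox1a (-3.97), the latter lost in 4 fits without 1 liver (adjusted p up to 0.0954). Both came from 74 tested genes of the lists, where 7.91% of all genes were called. edgeR called no gene of the lists in the other 7 liver comparisons. At most 0.879% of all genes were called in any of these, so the lack of calls says little of the lists. In these comparisons 4 to 10 of 69 to 74 tested list genes had an unadjusted p under 0.05 in edgeR, and DESeq2 called 0 or 1. These counts were not set against all genes in each comparison, and nothing is read from them. hmox1a itself spread widely, from 0.493 to 32.7 CPM over the 30 livers.

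The red cell genes varied together from liver to liver. Across the 30 livers, log2(CPM + 1) of hbaa1 was related to that of slc4a1a with Pearson's r = 0.86 and Spearman's rho = 0.82, of cahz with 0.83 and 0.80, of alas2 with 0.79 and 0.74, and of gata1a with 0.54 and 0.53. By a permutation test with 100000 resamples, adjusted over 10 relations, p was 2e-05 for r and rho of the first 3 genes. Their unadjusted p of 1e-05 is the smallest that these resamples can give. For gata1a it was 0.00436 and 0.00582. Without the 2 livers farthest from the median of hbaa1, r was 0.83, 0.78, 0.73 and 0.41, and on values centred within the 6 groups it was 0.84, 0.82, 0.78 and 0.62. Summed hepatocyte markers were also related to hbaa1 (r = 0.48, rho = 0.50, adjusted permutation p = 0.00585 and 0.0082), and macrophage markers inversely (r = -0.41, rho = -0.41, adjusted permutation p = 0.0332 and 0.0327). Without the 2 farthest livers these r were 0.45 and -0.32, and within groups 0.42 and -0.35. Thrombocyte, lymphocyte and endothelial markers gave r from -0.23 to 0.17 and adjusted permutation p from 0.285 to 0.733. The thrombocyte markers summed to 2104 to 12001 CPM in livers, against 100 to 784 CPM for the erythrocyte markers. Which cells this large sum reflects was not tested, so its r says little of thrombocytes.

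The genes most like the mean of the standardized red cell genes over the 30 livers were epb41b (r = 0.83), hif1al2 (0.74), gp1bb (0.73), nt5c2l1 (0.73) and dmtn (0.72), as a description. epb41b and dmtn encode proteins of the red cell membrane skeleton, and gp1bb a platelet glycoprotein found on thrombocytes. gp1bb is also among the thrombocyte markers, whose sum gave no such relation to hbaa1.

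The split of reads between hbaa1 and hbba1 (ENSDARG00000089087) differed between livers in a stepwise way. These values are a description, and the livers were not split for any test. In 14 livers there were 0.935 to 1.2 hbaa1 reads for each hbba1 read, in the other 16 there were 1.74 to 2.34, and no liver lay between. The ratio of si:ch211-5k11.8, which overlaps hbaa1, to hbba1 was 0.300 to 0.437 in the first 14 livers and 0.178 to 0.286 in the other 16, again without overlap. The low ratio was seen in 2 or 3 of the 5 livers of every group. The second hbba1 row had 0.101 to 0.166 reads per read of the first row in the 14 livers and 0.147 to 0.203 in the 16, with overlap. The counts behind these ratios were 637 to 3829 reads of hbaa1 and 287 to 3671 of hbba1 per liver. A difference in hbaa1 or hbba1 alone between livers therefore holds this split as well as the level. Summing hbaa1 with hbaa2 and hbba1 with hbba2 changed no call in any larval or liver comparison. In larvae this could hardly have been otherwise. There hbaa2 and hbba2 had 27 and 38 reads in all, against 3154 of hbaa1 and 3575 of hbba1. These sums keep alpha and beta reads apart and leave out si:ch211-5k11.8, so they cannot test the split.

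**Figure D5:**
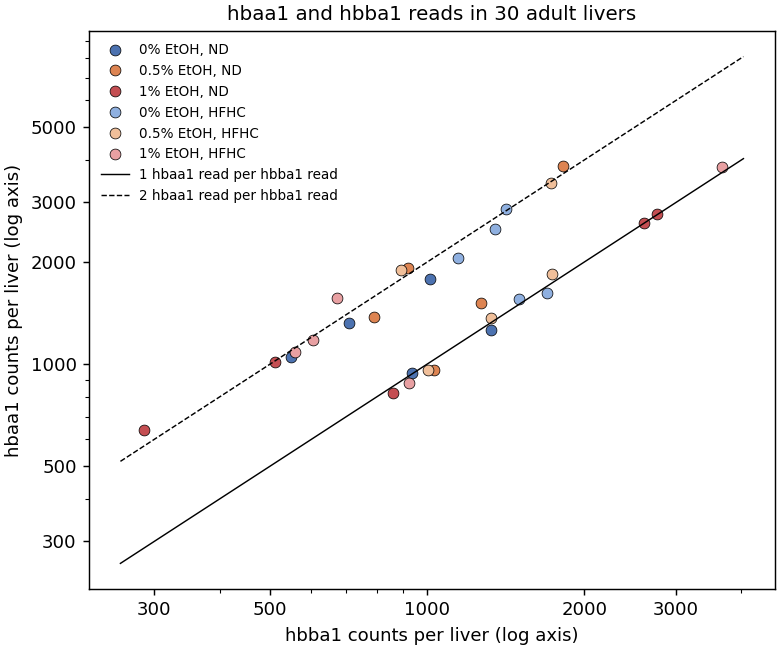
Reads of hbaa1 against reads of hbba1 (ENSDARG00000089087) in the 30 adult livers, on logarithmic axes, coloured by EtOH exposure and diet, with lines at 1 and 2 hbaa1 reads per hbba1 read. The 14 livers near the lower line have 0.935 to 1.2 and the 16 near the upper line 1.74 to 2.34 hbaa1 reads per hbba1 read, and both hold livers of all 6 groups.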

How the data were processed

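The counts were deposited by the authors as raw reads per gene. Per the submitters' processing notes, reads were aligned with STAR to GRCz10 and liver reads were counted with HTSeq 0.6.0. The program and gene models behind the larval counts are not given in the sources used here. TPM of larvae were computed and deposited by the authors. They served to compare levels between genes and, as globin shares and sums, to describe the larval groups, and were not tested. Deposited columns of the authors' own comparisons (fold changes and p-values) and 40 size-factor-scaled columns were not used. The genes described, the lists and the tests were chosen with earlier results of these data known.

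Genes passing filterByExpr were scaled by TMM and tested with edgeR 4.0.16 quasi-likelihood fits in R 4.3.3, with p adjusted by Benjamini-Hochberg over all genes tested (19657 in larvae, 12227 to 14225 in livers) and a threshold of 0.05. The 12 larval samples shared one fit. Each EtOH effect in livers was fitted on its 10 livers, and diet effects and interactions on all 30. SE was taken from each log2 fold change and its quasi-likelihood F, as the size of the former over the root of the latter. The scripts were tested on simulated data. Alternatives were DESeq2 1.42.0, RLE scaling, no filter, a replicate block, other samples in the fit, summed globin pairs and leaving out each sample. List genes named were the called ones with the smallest p, up to 4 per direction. Replicate pairs differed by more than sampling noise (chi-square per degree of freedom 4.50 to 8.34 in larvae and 17.3 to 312 in livers). Pairs with control ND liver replicate 3 had 143 to 312, against 52.8 to 105 for the other control ND pairs. That liver is part of every comparison that uses control ND livers. The p-values of the fits weigh each difference against the spread between replicate samples.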

Additional observations from a re-analysis of the deposited data

Results flagged for a closer look

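In all, 6 liver values stood far from the other 4 livers of their group by Dixon's test. Of 59 gene and group pairs examined, chance alone would be expected to give about 1 in 20 if values were normally distributed and pairs independent. CPM were not transformed for this test and the genes varied together between livers, so that share is only a rough guide. In the 1% EtOH HFHC livers, replicate 5 had 290 CPM of hbba1 (ENSDARG00000089087), where the next liver had 77.8 CPM, and 29.8 CPM of the second hbba1 row (ENSDARG00000097238), where the next had 12.9 CPM. In the 0.5% EtOH HFHC livers, replicate 3 had 27.2 CPM of hbaa2 (next 8.58 CPM) and 1.99 CPM of gata1a (next 0.807 CPM). hbbe2 was at 0.184 CPM in control HFHC replicate 6 and at 0.0915 CPM in 1% EtOH HFHC replicate 4, with 0 in the other livers of each group. Where the other 4 livers are at 0 any read at all stands apart by this test, so these 2 values say nothing of an unusual level.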

How the results depend on the processing

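For EtOH on ND, the count of red blood cell genes called was 3. It became 5 with a replicate block, 4 in DESeq2, 4 without a filter and 2 with only the compared groups. The genes called overall were 557 in DESeq2, 414 without a filter and 145 with only the compared groups. For EtOH on HFHC diet, 2 red blood cell genes were called with only the compared groups, and the genes overall were 131 (DESeq2), 100 (no filter), 22 (replicate block) and 92 (only the compared groups). For diet in control larvae, DESeq2, the replicate block and the fit of only the compared groups each called 1 red blood cell gene, and for diet in EAE larvae DESeq2 called 3. For the interaction, DESeq2 called 2, the fit without a filter 4 and the replicate block 1, and the genes overall were 265 (DESeq2) and 193 (no filter).

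In livers no alternative called a red blood cell gene. The genes called overall were as follows. For 1% EtOH on ND they were 40 in DESeq2 and 0 without a filter, with a replicate block or with all 30 livers. For 1% EtOH on HFHC diet they were 89 in DESeq2 and 0 with all 30 livers. For 0.5% EtOH they were 1036 in DESeq2 and 1132 with all 30 livers on ND, and 138 in DESeq2 on HFHC diet. For diet they were 561 with the block in control livers, 329 (DESeq2), 3 (no filter) and 4 (block) after 0.5% EtOH, and 672 (DESeq2) and 1 (block) after 1% EtOH. The 1% interaction had 1 in DESeq2 and the 0.5% interaction 255 with the block.

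Leaving out 1 sample at a time, red blood cell genes called ranged from 2 to 4 for EtOH on ND and from 0 to 3 for diet in control larvae. They ranged from 4 to 6 for diet in EAE larvae and from 0 to 4 for the interaction. Genes called overall in larvae ranged from 7 to 277 for EtOH on ND, 8 to 60 for EtOH on HFHC diet, 1868 to 3415 for diet in controls, 1525 to 1850 for diet in EAE larvae and 15 to 386 for the interaction. In livers they ranged from 0 to 3 (1% EtOH, ND), 0 to 5 (1% EtOH, HFHC), 0 to 272 (0.5% EtOH, ND), 0 to 1 (0.5% EtOH, HFHC), 338 to 2206 (diet, control), 0 to 49 (diet, 0.5% EtOH), 0 to 367 (diet, 1% EtOH) and 376 to 1606 (0.5% interaction). EtOH on ND without EAE ND replicate 3 gave 32 genes.

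Log2 fold changes that changed sign were all uncalled. They were slc4a1a for 1% EtOH in ND livers (-0.22 with the replicate block, -0.44 to 0.29 without 1 liver), hbaa1 in ND livers (-0.46 to 0.35 at 1% and -0.060 to 0.76 at 0.5% EtOH) and gata1a for diet in control larvae (-0.13 to 0.033). The causes were not tested. Replicate numbers were not taken to pair the samples, since in no pair of groups compared directly did every same-numbered pair correlate above 0.1. Deviations of same-numbered samples correlated between -0.11 and 0.0757 in larvae and between -0.557 and 0.572 in livers, where 12 of 70 were above 0.1. These 12 include all 5 of control ND with 0.5% EtOH HFHC livers, so that pairing is not excluded for livers that the study describes as siblings. Larval hbaa1 and hbba1 in EAE ND samples rest on 1 to 74 reads a sample.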
